A study of Mus musculus with 12 samples.

Results

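Radial glia identity genes were described in the embryonic mouse telencephalon as the 9 rows of the expression table named Fabp7, Slc1a3, Prom1, Hopx, Ednrb, Ddah1, Veph1, Dbi and Mfge8, out of 26190 genes in the table. All 9 were found, and all 9 passed the count minimum under which 14454 genes were tested. The RNA came from the whole telencephalon, the rostral part of the forebrain that holds the primordia of the cerebral cortex and of the basal ganglia, of 12 wild-type C57BL/6J embryos. These were 3 females and 3 males at embryonic day (E) 14.5 and 3 females and 3 males at E11.5, with 1 library per embryo and neither treatment nor mutation in any group. By the embryo list followed here the embryos came from 5 mothers, 2 of them at E14.5 and 3 at E11.5, and the sequencing identifiers form a separate series in each of the 4 groups, so that group and identifier series cannot be told apart.

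Radial glia are the neural stem cells of the developing brain. Their cell bodies line the ventricle and a long fiber runs from there to the outer surface, along which young neurons migrate. They arise from neuroepithelial cells around the onset of neurogenesis, take on features otherwise known from astrocytes, give rise to neurons directly or through intermediate progenitors, and later produce astrocytes. Several of the 9 genes are standard markers of these cells: Fabp7 encodes the brain lipid-binding protein, Slc1a3 the glutamate transporter GLAST and Prom1 the apical membrane glycoprotein prominin-1 (CD133).

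The library totals, taken as the sums of gene counts, ran from 22727782 to 28355361 in E14.5 females and from 17551763 to 21489997 in E14.5 males, and from 21284326 to 22635518 in E11.5 females and from 23013950 to 25255006 in E11.5 males. Xist lay between 1813 and 2539 CPM (counts scaled to the TMM-normalized library total) in the 6 female libraries and did not pass 0.681 CPM in the males, and the Y-linked Ddx3y had no count in females and 62.9 to 88.8 CPM in males, so the sex labels matched the data. All 20 listed progenitor genes of the ventricular zone were measured, among them Vim (381 FPKM at E14.5 and 621 at E11.5), whereas Gfap of mature astrocytes averaged 0.083 CPM at E14.5 and 0.074 at E11.5. The sample labels name the telencephalon and no cell type, so these values do not test the labels.

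Levels of the 9 genes covered a wide range. On the FPKM scale, which divides by transcript length and so allows genes to be set side by side, Fabp7 was the highest at both ages, with 464 ± 35.1 at E14.5 and 256 ± 23.6 at E11.5 (mean ± SD, n = 6 libraries per age). It lay above 99.6% of all tested genes at E14.5 and above 98.9% at E11.5. Veph1 was the lowest, with 1.93 ± 0.202 FPKM at E14.5 and 2.30 ± 0.096 at E11.5, next to Hopx with 4.27 ± 0.633 and 3.48 ± 0.418. Fabp7 alone made up 70.3 ± 0.773% of the summed FPKM of the 9 genes at E14.5 and 61.6 ± 1.85% at E11.5.

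The order below Fabp7 differed between the ages. At E14.5 it ran Dbi (52.6 ± 5.53 FPKM), Ddah1 (48.0 ± 1.51), Slc1a3 (35.01 ± 4.19), Mfge8 (20.4 ± 3.34), Prom1 (17.03 ± 2.91), Ednrb (16.5 ± 1.16), Hopx and Veph1. The libraries overlapped between Dbi and Ddah1, between Mfge8 and Prom1 and between Prom1 and Ednrb, and these neighbors were not separated beyond their spread. At E11.5 the order was Dbi (49.1 ± 3.17 FPKM), Ddah1 (32.1 ± 0.959), Prom1 (30.8 ± 0.799), Ednrb (15.2 ± 0.920), Slc1a3 (13.2 ± 1.40), Mfge8 (12.9 ± 0.894), Hopx and Veph1. Here the overlapping neighbors were Ddah1 and Prom1, Ednrb and Slc1a3, and Slc1a3 and Mfge8. The ratio of Slc1a3 to Prom1 in FPKM was 2.11 ± 0.454 at E14.5 and 0.429 ± 0.0476 at E11.5.

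**Figure D1:**
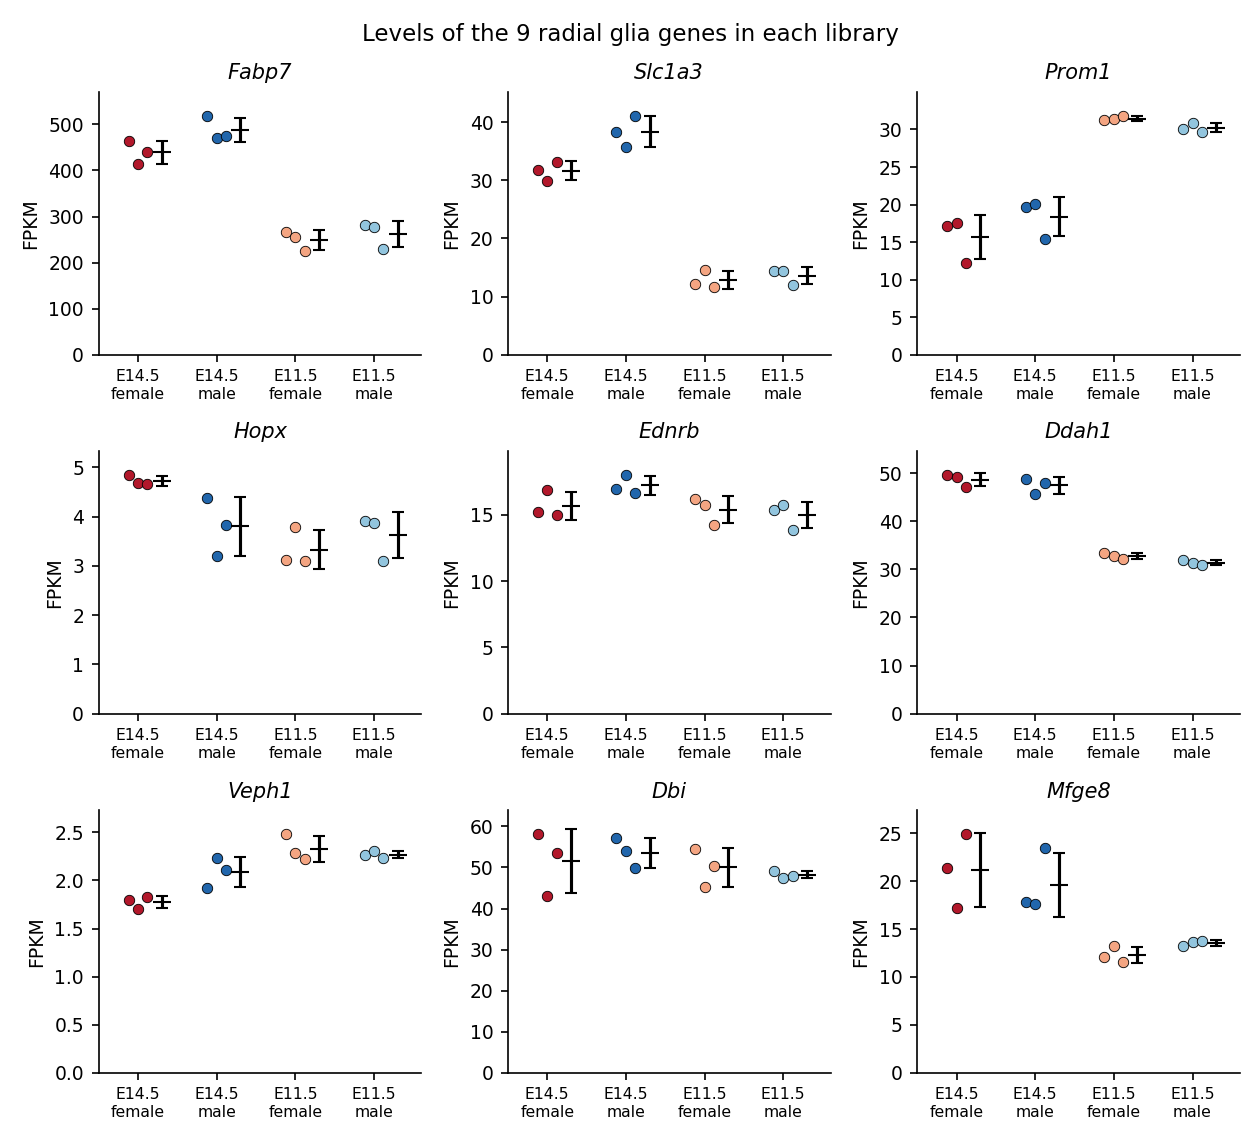
FPKM (vertical axes, each from 0) of the 9 genes in the 12 libraries, with E14.5 females and males left of E11.5 females and males; points are libraries and the bars beside them the mean and SD of 3. Fabp7, Slc1a3, Ddah1 and Mfge8 lie higher in every E14.5 library than in any E11.5 library, and Prom1 lies lower.

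Between the ages, the glutamate transporter gene Slc1a3 and the lipid-binding gene Fabp7 rose and the apical membrane gene Prom1 fell. Slc1a3, Fabp7, Mfge8 and Ddah1 were called higher at E14.5 and Prom1 was called lower, that is 4 and 1 of the 9, where 24.4% of all genes tested were called higher and 19.0% lower. Calls required both an adjusted p below 0.05 (edgeR's quasi-likelihood test, Benjamini-Hochberg over all 14454 genes) and an absolute log2 fold change above 0.5. With the adjusted p alone, Hopx and Ednrb joined the higher genes and Veph1 the lower ones, for 6 and 2 of the 9 against 40.1% and 41.6% of all genes. The libraries of the ages did not overlap in CPM for 5 of the 9, against 55.5% of all genes. In bulk tissue, fewer cells of a type and less RNA per cell cannot be told apart.

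Slc1a3 (Entrez Gene 20512, chr15:8634124-8710807, minus strand, GRCm38) encodes a sodium-dependent transporter that clears glutamate from around glial cells. Its lowest, median and highest values over 6 libraries were 146, 172 and 208 CPM at E14.5, against 56.8, 63.1 and 69.9 CPM at E11.5. The ages did not overlap, and the gene was 2.74-fold higher at E14.5 (log2 fold change 1.45, SE 0.06, adjusted p = 1.23e-10), the largest change of the 9. In females alone the log2 fold change was 1.32 and in males 1.58. The difference between the sexes in this change did not pass edgeR's test of sex by age (adjusted p = 0.116).

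Fabp7 (Entrez Gene 12140, chr10:57784923-57788450, plus strand) encodes a cytoplasmic carrier of long-chain fatty acids. It reached 367, 416 and 468 CPM (lowest, median and highest) at E14.5, against 199, 227 and 242 CPM at E11.5. The lowest E14.5 library, female 2, stood clear of the highest E11.5 library, male 1. The log2 fold change was 0.91 (SE 0.05, adjusted p = 8.75e-10), or 1.88-fold.

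Mfge8 (Entrez Gene 17304, chr7:79133768-79149060, minus strand) encodes a secreted glycoprotein that binds phosphatidylserine on dying cells and integrins on the cells that take them up. Its lowest, median and highest values were 42.4, 48.4 and 62.7 CPM at E14.5, against 28.4, 31.8 and 33.1 CPM at E11.5. The ages did not overlap, but the E14.5 libraries were widely spread, with female 3 and male 3 on top. The log2 fold change was 0.71 (SE 0.10, adjusted p = 1.96e-05).

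Ddah1 (Entrez Gene 69219, chr3:145758692-145894277, plus strand) encodes an enzyme that breaks down asymmetric dimethylarginine, an inhibitor of nitric oxide synthases. It had 204, 213 and 217 CPM (lowest, median and highest) at E14.5, against 131, 137 and 144 CPM at E11.5. The ages did not overlap, and the log2 fold change of 0.63 had an SE of 0.03 and the smallest adjusted p of the 9 (5.12e-11). After correction for GC content and transcript length its log2 fold change was 0.48, just short of the fold threshold (adjusted p = 5.25e-10).

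Prom1 (Entrez Gene 19126, chr5:43993622-44101736, minus strand) encodes a membrane protein of apical protrusions and of the primary cilium of neural progenitors. Its values were 59.5, 82.1 and 98.6 CPM (lowest, median and highest) at E14.5, against 138, 144 and 152 CPM at E11.5. The ages did not overlap, and Prom1 fell with a log2 fold change of -0.81 (SE 0.08, adjusted p = 1.02e-06). The change was -0.99 in females and -0.63 in males, a difference that did not pass edgeR's test of sex by age (adjusted p = 0.098).

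The start regions of the most changed genes in both directions, Slc1a3, Fabp7 and Prom1, are shown for their base composition and for short motifs of general and stem cell factors. Each is the RefSeq window on GRCm38.p6 from 250 bases before to 50 bases after the annotated start, printed 5′ to 3′ on the gene's own strand: chr15:8710758-8711057 on the minus strand for Slc1a3, chr10:57784673-57784972 on the plus strand for Fabp7 and chr5:44101687-44101986 on the minus strand for Prom1. Capitals mark a match, on either strand, to TGGGAA (RBPJ, the DNA-binding partner of Notch), CATTGT (Sox factors), CCAAT (the box bound by NF-Y), TATAAA (the element bound by TBP), TGACGT (cAMP response element core) or GGGCGG (GC box).
Slc1a3: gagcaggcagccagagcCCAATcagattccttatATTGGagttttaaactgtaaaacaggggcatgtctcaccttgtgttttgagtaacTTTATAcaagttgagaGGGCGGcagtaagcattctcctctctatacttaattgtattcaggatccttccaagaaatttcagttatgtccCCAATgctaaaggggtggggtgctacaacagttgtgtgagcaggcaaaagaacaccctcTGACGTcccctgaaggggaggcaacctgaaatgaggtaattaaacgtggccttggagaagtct
Fabp7: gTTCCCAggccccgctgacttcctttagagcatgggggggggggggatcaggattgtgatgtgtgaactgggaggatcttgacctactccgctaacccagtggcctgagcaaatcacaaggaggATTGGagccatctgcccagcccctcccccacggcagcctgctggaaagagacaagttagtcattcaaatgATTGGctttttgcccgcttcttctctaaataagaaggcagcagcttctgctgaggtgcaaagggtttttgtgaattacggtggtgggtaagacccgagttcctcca
Prom1: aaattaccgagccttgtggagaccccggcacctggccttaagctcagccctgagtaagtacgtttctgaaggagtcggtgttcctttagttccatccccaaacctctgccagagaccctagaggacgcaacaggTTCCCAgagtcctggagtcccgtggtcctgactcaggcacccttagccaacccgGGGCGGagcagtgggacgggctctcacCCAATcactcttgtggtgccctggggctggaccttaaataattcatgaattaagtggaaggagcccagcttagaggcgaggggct
The Slc1a3 window held 3 CCAAT matches, 1 TATAAA match on the opposite strand, 1 TGACGT and 1 GGGCGG match, the Fabp7 window 1 TGGGAA and 2 CCAAT matches, all on the opposite strand, and the Prom1 window 1 TGGGAA, 1 CCAAT and 1 GGGCGG match. Over all 9 genes, which have 12 windows in the table, CCAAT occurred in 7 genes, TGGGAA in 3 (Fabp7, Prom1 and Mfge8), GGGCGG in 3, TGACGT in 2, TATAAA in 1 and CATTGT in none. Counted by window, CCAAT was in 9 of the 12, TGGGAA in 3, GGGCGG in 3, TGACGT in 2, TATAAA in 1 and CATTGT in none. The windows of Dbi overlap and share a CCAAT match. Of all 32851 windows of this length, 37.4% held CCAAT, 25.6% TGGGAA, 35.7% GGGCGG, 7.51% TGACGT, 13.6% TATAAA and 12.6% CATTGT. The one motif found in all 3 printed windows was CCAAT, no matches in them overlapped, and G and C made up 45.3% of the window of Slc1a3, 54.0% of that of Fabp7 and 57.0% of that of Prom1.

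The remaining 4 genes did not reach the fold threshold. Hopx (Entrez Gene 74318, chr5:77086986-77115123, minus strand) encodes a small homeodomain protein without DNA binding and is used in human cortex as a marker of outer radial glia. It had 5.76, 8.02 and 8.36 CPM (lowest, median and highest) at E14.5 against 5.29, 5.96 and 6.66 CPM at E11.5, and the ages overlapped because E14.5 male 2 lay among the E11.5 libraries. Its log2 fold change was 0.34 (SE 0.09, adjusted p = 0.00369).

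Ednrb (Entrez Gene 13618, chr14:103814615-103844476, minus strand) encodes the type B receptor for endothelins. Its values were 75.6, 86.3 and 93.7 CPM at E14.5 against 68.5, 75.7 and 80.9 CPM at E11.5, with a log2 fold change of 0.17 (SE 0.04, adjusted p = 0.00292). The ages overlapped, since E14.5 females 1 and 3 fell inside the E11.5 range. With the GC and length correction the difference was 0.01 (adjusted p = 0.884).

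Veph1 (Entrez Gene 72789, chr3:66053558-66296837, minus strand) encodes a protein with a pleckstrin homology domain that is found in the ventricular zone. It had 12.8, 14.3 and 17.1 CPM at E14.5 against 16.3, 16.5 and 18.3 CPM at E11.5, with overlap through E14.5 males 2 and 3. The log2 fold change was -0.20 (SE 0.05, adjusted p = 0.00295) and -0.51 with the GC and length correction, which put the gene past the fold threshold (adjusted p = 2.09e-07).

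Dbi (Entrez Gene 13167, chr1:120113280-120121096, minus strand) encodes the acyl-CoA-binding protein, also known as diazepam binding inhibitor. Its E14.5 range of 37.3 to 50.4 CPM, with a median of 47.5, held the whole E11.5 range of 38.4 to 46.5 CPM, with a median of 40.8. The log2 fold change of 0.15 did not pass the adjusted p (0.0555), and it was 0.35 with the GC and length correction (adjusted p = 2.87e-05). That correction moved the median log2 fold change of all tested genes to -0.14, against -0.01 without it, and with it the called members were Fabp7 (1.09), Slc1a3 (1.29) and Mfge8 (0.64) as higher and Prom1 (-0.95) and Veph1 as lower.

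**Figure D2:**
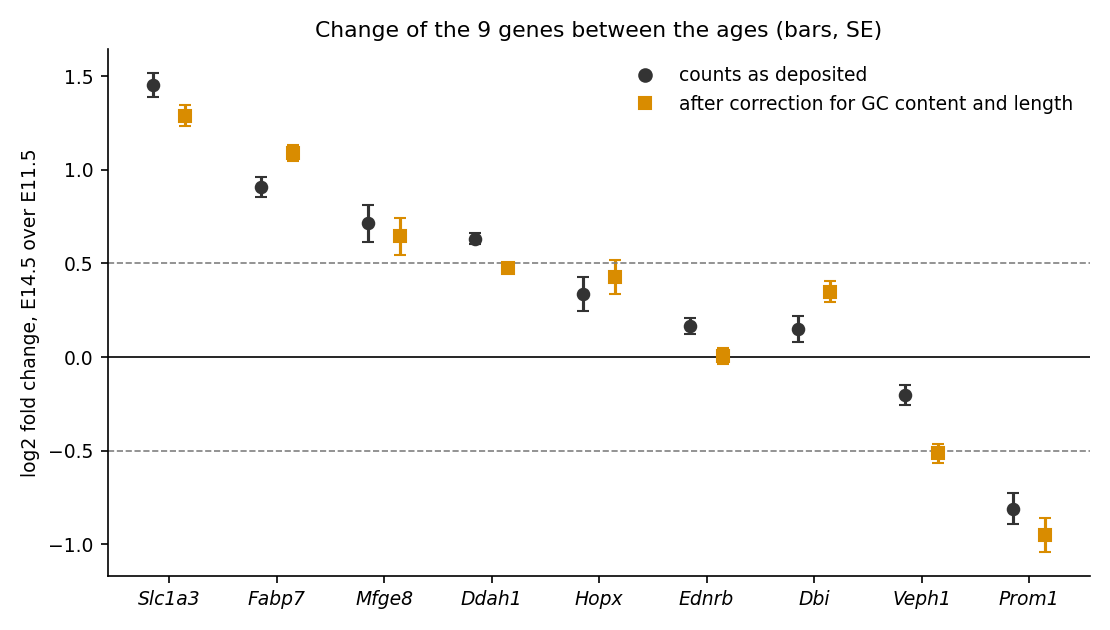
Log2 fold change of E14.5 over E11.5 (vertical axis) with its SE for each of the 9 genes, from the counts as deposited (circles) and after correction for GC content and length (squares); dashed lines stand at 0.5 and -0.5. Slc1a3 (1.45 and 1.29) and Fabp7 (0.91 and 1.09) are at the upper end and Prom1 (-0.81 and -0.95) at the lower end either way.

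Among the 9 genes, Prom1 and Mfge8 stood apart between the E14.5 litters. The share of all genes tested that stand apart in this way was not counted. Over all genes tested, deviations from the group means correlated between female 3 and male 3 with r = 0.56. Female 3 and male 3, which share a mother of their own, had 59.5 and 76.1 CPM of Prom1, below the 80.6 to 98.6 CPM of the 4 embryos of the first litter. They had 62.7 and 60.0 CPM of Mfge8, above the 42.4 to 52.0 CPM of the first litter. For the other 7 genes, at least 1 of the 2 embryos lay within the range of the first litter. In the same 2 libraries Ttr, which encodes the transthyretin of the choroid plexus, had 448 and 581.5 CPM, against 184 to 340.3 CPM in the first litter, and Neurod6, a transcription factor of excitatory neurons, had 565 and 624.9 against 367 to 477. Aqp1, also a choroid plexus gene, lay above the first litter in both libraries. Sox2, a ventricular zone progenitor gene, had 179 CPM in female 3, within the first litter (173 to 238 CPM). Male 3 lay below that range, at 145 CPM of Sox2. Eomes, an intermediate progenitor gene, had 241 CPM in female 3 and 213 CPM in male 3. These lay on opposite sides of the first litter (218 to 240 CPM). The part of any of these cell types in the values of Prom1 and Mfge8 was not tested. Without this litter the same number of genes was called, 4 higher and 1 lower.

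Each of the 9 genes was also set against the progenitor genes of the ventricular zone. The mean log2 CPM of the 20 listed progenitor genes was 7.11 ± 0.176 at E14.5 and 7.66 ± 0.0296 at E11.5 (SD, n = 6), and the level of each member was read against it within its library, as a description with no test. Since that mean was itself lower at E14.5, a gene whose own level did not differ between the ages has a positive difference on this scale. The difference was positive for 83.6% of all genes tested, with a median of 0.54, and for 8 of the 9. Slc1a3 stood at 0.32 relative to that mean at E14.5 and at -1.69 at E11.5, a difference of 2.01 on the log2 scale. Fabp7 stood at 1.59 at E14.5 and 0.13 at E11.5. Ddah1 stood at 0.62 at E14.5 and -0.57 at E11.5. The differences were 1.26 for Mfge8, 0.89 for Hopx, 0.72 for Ednrb, 0.70 for Dbi and 0.35 for Veph1. Of these, Ednrb (0.17), Dbi (0.15) and Veph1 (-0.20) had log2 fold changes of their own that were far smaller, or negative. Prom1 was the only member with a negative difference (-0.27), and its ages overlapped on this scale, as did those of Veph1 and Dbi.

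**Figure D3:**
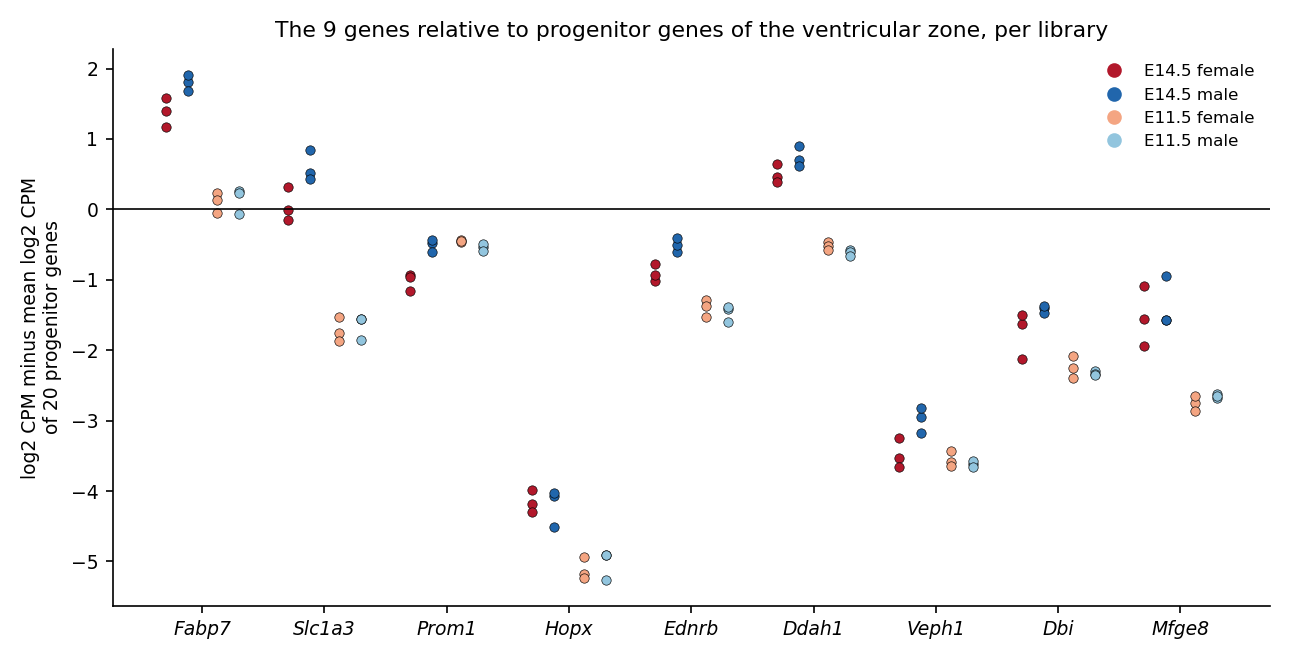
Log2 CPM of each gene minus the mean log2 CPM of 20 progenitor genes in the same library (vertical axis), with points for the libraries of the 4 groups. Slc1a3 moves by 2.01 between the ages, whereas Prom1 moves by -0.27 with overlapping ages; the median over all genes tested is 0.54.

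Of the 20 progenitor genes themselves, 9 were called lower at E14.5 and none higher, with a median log2 fold change of -0.47 against -0.01 over all genes tested. Among them were Emx2, a transcription factor of the dorsal telencephalon (61.8 ± 8.84 CPM at E14.5, 140.5 ± 9.93 at E11.5, log2 fold change -1.19), Gli3, an effector of Hedgehog signaling (-1.03), Tead2, a partner of YAP (-0.83), and Vim, the intermediate filament of radial fibers (-0.66). Of 27 tested genes of late radial glia and astroglia, 16 were called higher and 2 lower, with a median of 0.97. Aldoc, the aldolase of astrocytes, had 119.6 ± 7.28 CPM at E14.5 and 2.601 ± 0.243 at E11.5 (log2 fold change 5.52), Nfia, a transcription factor that starts gliogenesis, rose by 1.84, Ptn, a secreted growth factor, by 1.504, and Slc1a2, the glutamate transporter GLT-1, by 1.47. S100b had no count at E11.5 and, with Gfap, did not reach the count minimum. Of 12 genes named as outer radial glia markers in human cortex, 3 were called higher, Ptn among them, and 4 lower, among them Gli3, Itgb5 (-1.11) and Il6st (-0.75), and their median of 0.03 turned to -0.30 with the GC and length correction.

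Among relatives and partners of the 9 genes, 22 of 25 listed genes were tested, of which 7 were called higher at E14.5 and 6 lower. The glutamate and neutral amino acid transporters of the Slc1 family moved apart. Slc1a1, a transporter of neurons, had 26.8 ± 4.95 CPM at E14.5 and 1.36 ± 0.263 at E11.5 (log2 fold change 4.29, SE 0.15, adjusted p = 3.44e-11), and Slc1a4 rose by 0.77. Slc1a5, a glutamine transporter, fell with a log2 fold change of -0.94, and Slc1a6 was low at both ages (2.003 CPM at E14.5 and 2.11 at E11.5) with no call.

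The fatty acid-binding relatives of Fabp7 differed from it in size of change. Fabp5, at 259.6 FPKM at E14.5 and 247 at E11.5, had a log2 fold change of 0.13 (adjusted p = 0.00191) and no call. Fabp3 was called higher (1.27), at 6.30 FPKM at E14.5 and 2.72 at E11.5.

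The receptors of Mfge8 fell while Mfge8 itself rose. Itgb3 had 3.78 ± 0.590 CPM at E14.5 and 21.4 ± 3.66 at E11.5 (log2 fold change -2.51, SE 0.13, adjusted p = 6.69e-10), Itgb5 changed by -1.11 and Itgav by -0.68. These encode the integrin chains beta 3, beta 5 and alpha V. Edil3, the close relative of Mfge8, rose by 0.60, and by 0.37 with the GC and length correction.

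In the endothelin system, Ednra, the type A receptor, fell with a log2 fold change of -0.94 to 9.27 ± 1.15 CPM at E14.5, against 17.8 ± 1.81 CPM at E11.5. The ligands Edn3 (6.21 CPM at E14.5 and 5.09 at E11.5) and Edn1 (1.06 and 1.31 CPM) and the converting enzymes Ece1 (log2 fold change -0.45) and Ece2 (0.47) were not called. Edn2 did not reach the count minimum.

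For Ddah1, its relative Ddah2 had 143 FPKM at E14.5 and 144 at E11.5, with a log2 fold change of 0.01, and Nos1, the neuronal nitric oxide synthase, rose to 29.2 ± 10.1 CPM at E14.5, against 0.783 ± 0.322 CPM at E11.5 (log2 fold change 5.27, SE 0.32, adjusted p = 5.24e-08). For Dbi, Tspo, the mitochondrial protein it binds, fell with a log2 fold change of -1.46 to 1.99 ± 0.525 CPM at E14.5, against 5.38 ± 0.676 CPM at E11.5, Acbd5 rose by 0.63, and Acbd3 (0.14) and Acbd6 (0.35), which carry an acyl-CoA-binding domain, were not called. Prom2, the relative of Prom1, and Acbd7 did not reach the count minimum.

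Markers of other cell types moved between the ages as well, and their part in the differences of the 9 genes was not tested. All 15 neuron genes were called higher at E14.5, with a summed level of 7602 to 9594 CPM against 2338 to 2836 CPM at E11.5 (Rbfox3 log2 fold change 2.49, Gap43 2.04, Syt1 2.28 and Tubb3 1.01). Of 11 intermediate progenitor genes, 7 were called higher and 1 lower (1089 to 1273 CPM against 641 to 682 CPM; Sstr2 3.44, Rhbdl3 2.01, Neurog2 0.99 and Eomes 0.97). Ventral progenitor genes were called higher in 2 and lower in 3 of 8 (Dlx1 1.11, Dlx2 0.53, Olig2 -1.09, and Gsx2 -0.39 without a call). Oligodendrocyte precursor genes were called higher in 2 and lower in 4 of 7 tested (Lhfpl3 4.52, Cspg4 1.20, Gpr17 -1.05), with 72.0 to 99.8 CPM against 112 to 134 CPM.

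Vascular and epithelial cells also express Ednrb and Mfge8. Of 12 endothelial genes 2 were called higher and 3 lower (374 to 442 CPM at E14.5 against 465 to 549 CPM at E11.5; Slco1c1 3.98, Emcn -1.19, Slc2a1 -0.62, and Tie1 -0.42 without a call). Of 14 genes of mesenchyme and pericytes 5 were called higher and 9 lower (656 to 944 CPM against 1052 to 1330.01 CPM; Col3a1 -1.04, Lum -1.52, Foxc1 -1.16 and Twist1 -2.17). Of 11 choroid plexus genes 7 were called higher and 3 lower (287 to 731 CPM against 142 to 148 CPM; Calml4 3.34, Otx2 -1.48, Msx1 -1.89 and Lmx1a -1.44).

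Blood genes mostly fell, and 3 genes shared with pigment cells rose. Erythroid genes were called lower in 8 and higher in 1 of 10 tested (871 to 1260.5 CPM at E14.5 against 4613 to 8155 CPM at E11.5; Hbb-bh1 -8.45, Epb42 -5.76 and Slc4a1 -4.75). Of 12 genes of microglia and macrophages 4 were called higher and 1 lower (67.3 to 119 CPM against 57.5 to 64.4 CPM; P2ry12 1.29, Csf1r 0.63, C1qa 0.78, and C1qc 0.47 without a call). The 3 tested genes of melanocytes and pigment cells, Kit (1.37), Dct (0.88) and Mitf (0.51), were called higher, while Tyr, Tyrp1, Pmel and Mlana, the defining genes of pigment, did not reach the count minimum and Mlana had no count.

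Lists of neighboring tissue had low summed levels at both ages. Eye genes were tested in 4 of 10 (Rlbp1 4.43, Cryab 2.03, Six3 -0.61 and Six6 -1.30), with 74.1 to 90.2 CPM at E14.5 against 42.5 to 47.3 CPM at E11.5. Of 10 diencephalon genes 1 was called higher and 4 lower (58.2 to 82.6 CPM against 94.0 to 114 CPM; Tcf7l2 -1.20, Irx3 -1.44, and Lhx9 -0.39 and Rora -0.48 without a call). Neural crest and Schwann precursor genes were called lower in 4 of 5 tested (13.3 to 23.4 CPM against 30.0 to 47.2 CPM; Tfap2a -3.19, Tfap2b -2.70 and Sox10 -0.85).

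**Figure D4:**
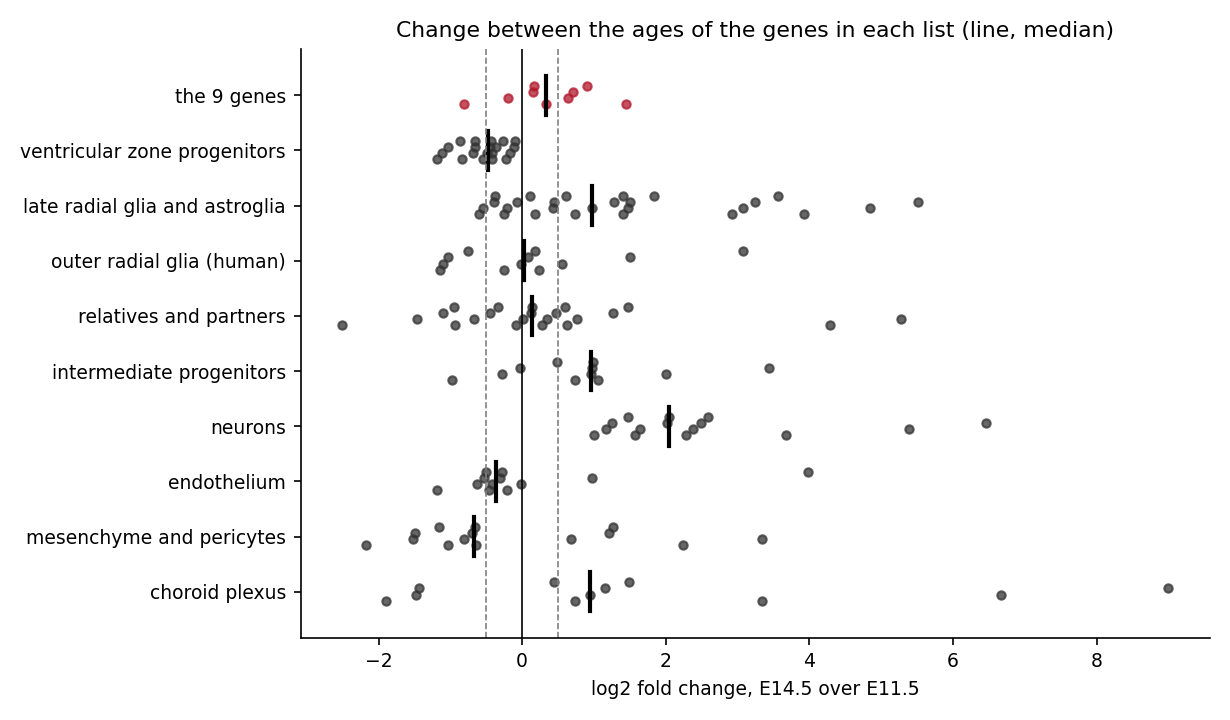
Log2 fold change of E14.5 over E11.5 (horizontal axis) of the tested genes in each list, with the 9 genes in red, a black line at each median and dashed lines at 0.5 and -0.5. The median of the 9 genes is 0.34, between -0.47 for ventricular zone progenitors and 0.97 for late radial glia and astroglia; with the GC and length correction the outer radial glia median changes sign.

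The median log2 fold change of the 9 genes was 0.34, and 0.43 with the GC and length correction. By the correlation of log2 CPM over the 12 libraries, in which the age groups dominate and all genes share library and depth, the gene most like Slc1a3 was Nrxn3 (r = 0.997), and that most like Fabp7 was Cntnap3 (0.994). Prom1 was most like Nasp (0.996), a histone chaperone, and Ttk (0.995), a kinase of the mitotic checkpoint. Mfge8 was most like Wfikkn2 (0.987) and Aqp1 (0.984), and Ddah1 most like Hpcal4 (0.994) and Ppm1h (0.993). Correlations were lower for the genes that changed little, with Ctso (0.965) and B130024G19Rik (0.940) for Ednrb, Fbh1 (0.950) and C330018D20Rik (0.941) for Veph1, Ndufa11 (0.920) and Fndc10 (0.919) for Hopx, and Wrb (0.876) and Golga5 (0.866) for Dbi.

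Between the sexes at E14.5, the study's main question, none of the 9 genes was called, where 11.6% of all genes were. None was called by DESeq2's Wald test or by limma on FPKM either, while 6 had an unadjusted p under 0.05. The share of all genes under that unadjusted p was not counted at either age. At the adjusted p alone, 6560 of the 14454 genes tested already passed at E14.5, in either direction. By the adjusted p alone, Slc1a3, Veph1, Fabp7 and Ednrb were lower in females, 4 of 9 against 21.6% of all genes. At E14.5 the female libraries were also the deeper ones, without overlap with the males, and the part of depth in these values was not tested. Summed over the 9 genes the level was 997 to 1048 CPM in E14.5 females against 1119 to 1177 CPM in E14.5 males. Among the other lists, the sum of oligodendrocyte precursor genes (72.0 to 80.8 CPM in females against 88.5 to 99.8 CPM in males) also lay lower in all females. The same held for the sums of neural crest genes (13.3 to 15.9 against 18.8 to 23.4 CPM) and outer radial glia genes (905 to 1099 against 1140.4 to 1325 CPM). Single genes did not all follow these sums. In the oligodendrocyte precursor list 2 of 7 tested genes were called lower, Pdgfra (-0.60) among them. Its Olig1 (0.39) and Olig2 (0.30), also ventral progenitor genes, were higher in females by the adjusted p alone. Of the 12 outer radial glia genes 2 were called lower, among them Ptprz1 (-0.65). Acsbg1 (0.32) and Stat3 (0.21) were higher by the adjusted p alone. Intermediate progenitor genes (1225 to 1273 CPM in females against 1089 to 1133 CPM in males) and ventral progenitor genes (526 to 669 against 444 to 518 CPM) lay higher in all females. The 20 progenitor genes overlapped (4057 to 4874 against 3679 to 4183 CPM), and the part of such cells was not tested. The libraries of the sexes did not overlap for 5 of the 9 genes, against 49.7% of all genes.

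Slc1a3 had 153, 146 and 165 CPM in E14.5 females, against 191, 179 and 208 CPM in E14.5 males. All 3 females lay below all 3 males, in both litters, with a log2 fold change of -0.32 (SE 0.09, adjusted p = 0.00869). Veph1 had 13.2, 12.8 and 13.9 CPM in females against 14.6, 17.1 and 16.3 CPM in males, again without overlap (-0.28, SE 0.08, adjusted p = 0.00939).

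Fabp7 had 404, 367 and 396 CPM in E14.5 females against 468, 428 and 435 CPM in E14.5 males (-0.19, SE 0.07, adjusted p = 0.0497). Ednrb had 75.6, 85.3 and 77.2 CPM in females against 87.7, 93.7 and 87.2 CPM in males (-0.17, SE 0.06, adjusted p = 0.0346). Neither gene overlapped between the sexes. With the GC and length correction all 4 differences fell short of the adjusted p: the log2 fold change was -0.15 for Slc1a3, -0.00143 for Fabp7, 0.05 for Ednrb and 0.00394 for Veph1.

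Hopx ran the other way, with 8.36, 8.21 and 8.32 CPM in E14.5 females against 7.83, 5.76 and 6.96 CPM in E14.5 males. The sexes did not overlap, but the log2 fold change of 0.28 did not pass the adjusted p (0.0891); with the correction it was 0.42 (adjusted p = 0.0263), and Dbi was at -0.25 (adjusted p = 0.0289). Prom1 (-0.27, adjusted p = 0.076), Dbi (-0.10), Mfge8 (0.07) and Ddah1 (-0.00226) did not pass as deposited, and the sexes overlapped in all 4. For Prom1 the overlap was between litters, and within each litter the females lay below the males. The first litter had 80.6 and 83.6 CPM in females against 95.7 and 98.6 CPM in males. The second had 59.5 CPM in the female against 76.1 CPM in the male. The share of all genes tested that are ordered by sex within both litters was not counted. With the GC and length correction the log2 fold change of Prom1 was -0.06 (adjusted p = 0.799).

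Between the sexes at E11.5, none of the 9 genes was called, where 0.374% of all genes were, and none passed the adjusted p alone, where 2.14% did. Their adjusted p ran from 0.237 to 0.801, with 1 unadjusted p under 0.05, that of Ddah1, and DESeq2 and limma called none. Ddah1 had 144, 140.1 and 139.8 CPM in E11.5 females against 135, 131 and 131 CPM in E11.5 males, without overlap (0.09, SE 0.04). Prom1 and Veph1 also did not overlap between the sexes, with log2 fold changes of 0.09 and 0.07, and the other 6 genes overlapped, where 29.2% of all genes did not overlap.

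For 2 of the 9 genes the female to male ratio changed between the ages (the interaction of sex and age), both with a more negative female to male ratio at E14.5, where 18.5% of all genes tested were called in that direction at the adjusted p alone. The difference of log2 ratios was -0.35 for Veph1 (SE 0.11, adjusted p = 0.0205) and -0.24 for Ednrb (SE 0.09, adjusted p = 0.0413). The log2 fold change with age was 0.04 in females and 0.29 in males for Ednrb, and -0.38 in females and -0.03 in males for Veph1. With the mother as a block, Fabp7 (-0.15), Slc1a3 (-0.26) and Prom1 (-0.37) were called as well, 5 in all, where 25.2% of all genes were called in that direction with the same block. With the GC and length correction none was called, and the value was 0.01 for Ednrb and -0.06 for Veph1. Leaving out single libraries ended the call of Ednrb in 8 of 12 cases (E14.5 females 1 and 3 and males 1 and 2, E11.5 females 1 and 2 and males 1 and 3; adjusted p from 0.0535 to 0.106), and that of Veph1 without E11.5 female 1 (adjusted p = 0.0552) or without E14.5 male 2 (0.0596).

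**Figure D5:**
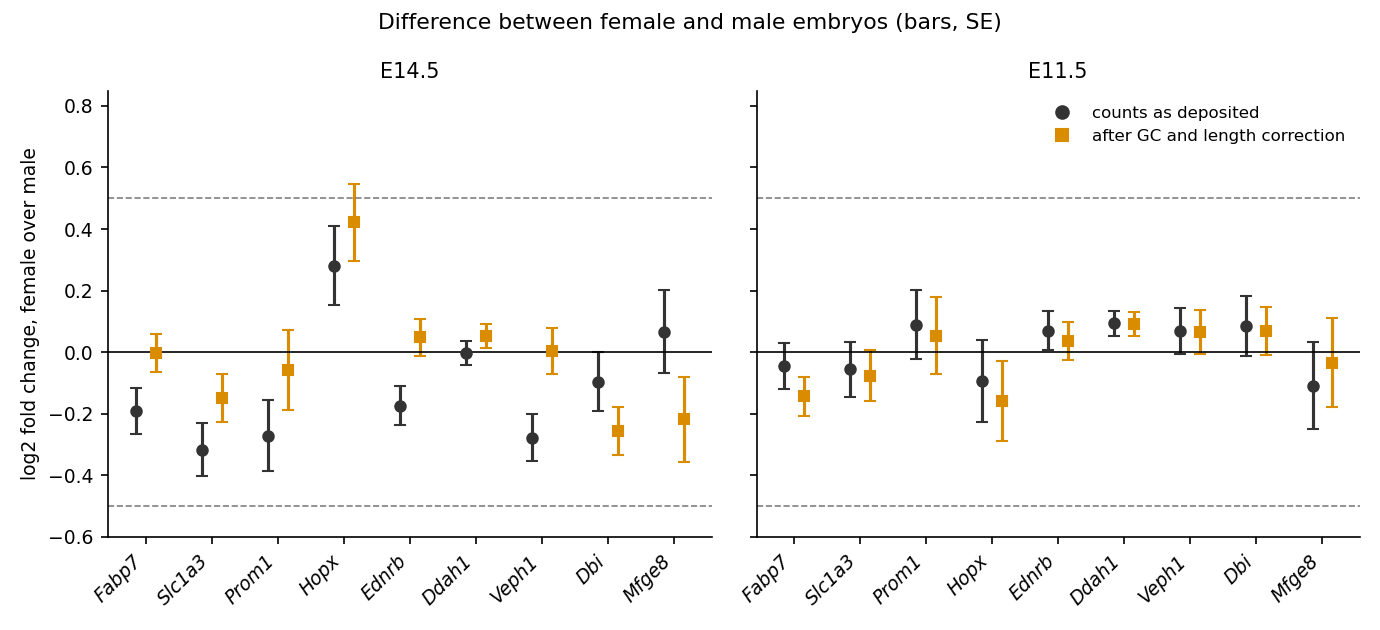
Log2 fold change of females over males (vertical axis) with its SE for the 9 genes at E14.5 (left) and E11.5 (right), from the counts as deposited (circles) and after correction for GC content and length (squares); dashed lines stand at 0.5 and -0.5. At E14.5 Slc1a3 moves to -0.15 from -0.32 and Veph1 to 0.00394 from -0.28 with the correction, while no E11.5 value passed the adjusted p as deposited or corrected.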

How the data were processed

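Poly(A) RNA of 12 telencephalons was sequenced as paired ends from stranded libraries. The authors aligned the reads with STAR 2.6.0c to GRCm38 and counted them per gene with the Genedata Profiler Genome software. For each of 26190 genes the authors deposited an estimated count per library, not normalized, of which 82.7% are whole numbers. Beside it stands the FPKM the authors made from these counts, per transcript length and library total. The handling of reads that fit more than 1 gene is not given in the sources used here, so values of genes with near-identical copies are uncertain. All per-sample columns were mapped to a sample.

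Counts were rounded and tested in edgeR 4.0.16 (R 4.3.3; TMM, robust quasi-likelihood, 8 residual degrees of freedom) in a joint model of the 4 groups, for the 14454 genes with a mean count of 16 or more in some group. Adjustment was by Benjamini-Hochberg over all of them. Sex by age was called at the adjusted p alone, and other comparisons also needed an absolute log2 fold change above 0.5. Ratios are E14.5 over E11.5 (mean of the sexes) and female over male. The p-values cover the spread between embryos of few litters.

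GC content and transcript length were corrected with a loess fit (span 0.5) in each library, entered in the model as offsets, with the GC share of transcripts read from the GRCm38 annotation for 25887 genes (98.8%). This also takes out any biological difference that runs with GC content. Other alternatives were DESeq2 1.42.0 (its size factors and its Wald test), upper quartile normalization, limma 3.58.1 on log2(FPKM + 0.1) and log2(FPKM + 1), other count minimums, the adjusted p alone, blocks for replicate number and for litter, each age alone, and leaving out single libraries or the second E14.5 litter. Per the study's embryo table, replicate numbers join a male and a female of 1 mother at E11.5, and replicates 1 and 2 share a mother at E14.5. The study's text and this table differ in the number of E11.5 litters, and the table was followed. Deviations from the group means correlated within these male and female pairs with r of 0.067, 0.132 and 0.225 for the E11.5 pairs, and of 0.214, 0.271 and 0.56 for those of E14.5. Litters lie within age, so no litter block was possible for the ages.

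The 9 genes and all lists were chosen with earlier results of these data known. Named were the 9 genes, their measured relatives and partners, the 4 genes of each other list with the smallest adjusted p for age, and for each member the 2 genes of highest correlation, a few of which are not reported here. Ttr, Neurod6, Sox2, S100b, Gfap, the untested pigment genes and the single genes given beside the list sums of the sexes were named after their values were seen. Python 3.11.15, pandas 2.3.3, numpy 2.4.6, scipy 1.17.1 and matplotlib 3.10.9 were used, and the test was tried on simulated counts. Promoter windows are RefSeq's, on GRCm38.p6.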

Additional observations from a re-analysis of the deposited data

Results flagged for a closer look

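The change of the female to male ratio between the ages passed the adjusted p for Veph1 (-0.35 on the log2 scale) and for Ednrb (-0.24), by edgeR's interaction test. In both genes all 3 E14.5 females lay below all 3 E14.5 males, which is part of the same difference. The sexes did not overlap at E14.5 for 49.7% of all genes tested, in either direction. Sex by age was called in this direction for 18.5% of all genes tested. With the GC and length correction neither gene passed the same test (adjusted p = 0.769 for Veph1 and 0.957 for Ednrb).

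Among the 18 sets of 6 libraries of 1 age, 9 genes at each of 2 ages, 1 held a library set far apart from the others. Veph1 had 18.3 CPM in E11.5 female 1, against 16.3 to 16.8 CPM in the other 5 E11.5 libraries, a gap of 0.761 of the whole range, above Dixon's critical value for 6 values. Chance alone marks about 1 in 20 such sets.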

How the results depend on the processing

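The 5 age calls among the 9 genes were 5 in number under each alternative run except the adjusted p alone, which gave 8, and the GC and length correction exchanged Ddah1 for Veph1. No member was called between the sexes at either age under any alternative except the adjusted p alone, which gave 4 at E14.5. For sex by age, 2 members were called, and the number was 0 with limma on log2(FPKM + 0.1) and on log2(FPKM + 1), 1 with no filter on low counts, 0 with the GC and length correction, 1 (Dbi) with that correction and the replicate block, 5 with the litter block, 3 with DESeq2's Wald test (Prom1 joined), 3 without the second E14.5 litter, and 0 to 3 with single libraries left out. The Ednrb value turned to 0.0117 with the correction and to 0.00974 with the correction and block. The cause was not tested. Over all genes, the adjusted p alone gave 11807 against 6265 with age, 309 against 54 between the sexes at E11.5 and 6560 against 1677 at E14.5. The 54 became 35 with limma on log2(FPKM + 1), 97 with libraries of 1 age alone, 169 with the litter block, 124 without the second E14.5 litter and 21 to 67 with single libraries left out (24 without E11.5 male 1, 27 without male 2, 31 without female 1 and 21 without female 3). The 1677 (865 higher and 812 lower in females) became 888 with limma on log2(FPKM + 1) (669 and 219), 360 with the correction (130 and 230) and 380 with correction and block, and limma on log2(FPKM + 0.1) split 1081 to 561. The 5651 for sex by age (2982 and 2669) became 1767 and 1818 with these corrections and 7530 with the litter block (3884 and 3646), and limma on log2(FPKM + 0.1) split 3631 to 1935. With age the split was 3521 higher to 2744 lower, and 2849 to 3638 with the correction. The replicate block alone left the members' calls at 5, 0, 0 and 2, and gave 6270, 66, 1705 and 5978 genes for age, sex at E11.5, sex at E14.5 and sex by age. With 3 embryos per group, differences near the spread between embryos could not be resolved, and Veph1 and Hopx had the lowest levels.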
